A study of Mus musculus with 8 samples.

Results

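The genes described here are 33 genes of glucose uptake, glycolysis and lactate handling, chosen as a list by function: glucose transporters, the enzyme of each glycolytic step, the PFKFB enzymes, lactate dehydrogenases, lactate transporters and the pyruvate dehydrogenase kinases with their target subunit. All 33 were found among the 54446 listed genes, and 31 of them were among the 15613 genes that passed the filter on low counts and were tested. The remaining 2, Ldhb and Pdk3, had at most 4 counts and 1 count in any library. The cells were Hepa1-6, a hepatoma line that the labels place in the C57BL/6 mouse strain, and their mRNA was sequenced in bulk. Each of 4 groups held 2 libraries: untreated (control), 50 µM of trimethylamine N-oxide (TMAO, an oxidised amine made by gut bacteria and liver from dietary choline), 50 ng/ml of TNF-α (a cytokine of inflammation), or the 2 agents together at those doses. Exposure lasted 24 h in the treated groups, and all cells were cultured in DMEM with fetal bovine serum. A treatment label of the 2 combined libraries names TMAO for both agents, whereas their titles and the protocol name TMAO and TNF-α. All groups come from 1 transformed line, so no primary hepatocytes were measured.

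Glycolysis turns glucose into pyruvate in the cytosol and yields ATP without oxygen. Glucose enters through transporters of the GLUT (Slc2a) family, is trapped by hexokinase and is committed to the pathway by phosphofructokinase, which is activated by fructose 2,6-bisphosphate, the product and substrate of the PFKFB enzymes. Pyruvate is either reduced to lactate by lactate dehydrogenase and exported by monocarboxylate transporters, or oxidised in mitochondria by pyruvate dehydrogenase, which the PDK kinases switch off. Differentiated liver uses GLUT2 (Slc2a2) and the liver pyruvate kinase (Pklr), among others, whereas hepatoma cells commonly carry the isozymes of proliferating cells. Many glycolytic genes are known targets of the hypoxia-inducible factors (HIF), which bind the core letters ACGTG or GCGTG in DNA.

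Promoter sequence is shown for 4 of the genes, because Slc2a1, Pgk1 and Ldha were among the genes lower in TMAO-treated cells in both settings and Pfkfb2 was 1 of the 2 that passed the test for TNF-α. Each runs 5′ to 3′ on the gene's own strand from 250 to 21 bases before the first transcription start in RefSeq (build GRCm38.p6), with every ACGTG or GCGTG on either strand in capitals (CACGT and CACGC on the strand shown). In Ldha the capitals also cover the whole palindrome CACGTG. The windows are chr4:119108495-119108724 (plus strand, Slc2a1), chrX:106186850-106187079 (plus strand, Pgk1), chr7:46845554-46845783 (plus strand, Ldha) and chr1:130716069-130716298 (minus strand, Pfkfb2).
Slc2a1: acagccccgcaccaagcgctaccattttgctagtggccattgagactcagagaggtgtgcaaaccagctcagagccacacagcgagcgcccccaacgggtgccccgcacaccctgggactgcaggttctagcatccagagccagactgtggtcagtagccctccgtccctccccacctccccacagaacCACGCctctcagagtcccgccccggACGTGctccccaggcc
Pgk1: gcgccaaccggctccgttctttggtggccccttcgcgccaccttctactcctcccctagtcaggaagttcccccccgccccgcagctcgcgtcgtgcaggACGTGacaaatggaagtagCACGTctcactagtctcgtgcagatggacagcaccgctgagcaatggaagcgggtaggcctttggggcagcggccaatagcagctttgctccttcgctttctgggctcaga
Ldha: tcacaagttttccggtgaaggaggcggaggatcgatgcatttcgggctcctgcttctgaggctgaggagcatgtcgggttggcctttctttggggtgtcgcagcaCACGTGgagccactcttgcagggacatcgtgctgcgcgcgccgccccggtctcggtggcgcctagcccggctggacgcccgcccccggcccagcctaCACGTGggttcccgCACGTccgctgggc
Pfkfb2: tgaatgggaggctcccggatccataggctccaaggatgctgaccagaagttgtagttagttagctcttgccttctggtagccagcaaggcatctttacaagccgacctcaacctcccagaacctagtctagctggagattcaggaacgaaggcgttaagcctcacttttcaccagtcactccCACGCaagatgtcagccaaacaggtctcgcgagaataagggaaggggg
The first bases of the matches lie at -61 and -36 from the start in Slc2a1, at -150 and -131 in Pgk1 and at -68 in Pfkfb2. In Ldha they lie at -145, -144, -48, -47 and -34, since each CACGTG matches once on either strand. Of the 32 genes with a window in RefSeq, 23 (71.9%) held ACGTG or GCGTG on either strand within 250 bases before the start, against 43.9% of 17492 protein-coding genes. CACGTG, which contains ACGTG on both strands, was in 4 windows (12.5%; Ldha, Pdk2, Pfkm and Slc16a1), against 6.65% of all genes. The NF-κB decamer was in 0 of the 32 windows, against 3.96% of all genes. The members' windows were also richer in G and C, with a median of 58.6% against 55.2%. In GENCODE M21, exons of Slc2a1 itself share 34 summed bases with the 250 bases before its RefSeq start. Those of Pgk1, Ldha and Pfkfb2 held no annotated exon. A match is a run of letters in 1 window and says nothing of binding in these cells, which was not measured.

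Total counts ran from 24736746 in TNF-α 16 to 30488605 in TMAO 16, and 20815 to 22917 genes had at least 1 count. The numbers 14 and 16 are those in the library titles. The labels do not give their meaning or name separate cultures, so the p-values reflect nothing but how these libraries spread, and that spread may be technical. The TNF-α pair differed far more than the others: the SD over genes of the log2 difference between the 2 libraries was 0.693, and 0.254 in control, 0.18 in TMAO and 0.212 in the combined group. In the TNF-α pair 20 of the 31 tested genes were higher in library 16, by a median of 0.232 on the log2 scale against 0.0327 over all genes. Markers of the labelled cell type were present in part: Alb ran from 347 to 1230 CPM (counts scaled to the library total) and Afp from 595 to 1590, whereas Apoa1, Ttr and Serpina1a were at most 0.338 CPM. The markers of blood cells, fibroblasts and endothelium did not reach 2 CPM, apart from Cd68 (7.85 to 13.1), Csf1r (2.94 to 7.81) and Dcn (1280 to 1800), and Col1a2, Pdgfrb, Acta2, Lrat, Adgre1, Tyrobp, Kdr and Tek were at 0 in at least 1 library. In bulk samples fewer cells of a type and less RNA per cell cannot be told apart.

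Slc2a1 far exceeded the liver form Slc2a2, and Pkm far exceeded Pklr, whereas Pfkl, the liver isozyme, was the main phosphofructokinase. No liver or resting cells were measured, so a pattern of proliferating cells was not tested. Levels between genes are compared as TPM (the deposited values, scaled by gene length and library), in which the 33 genes summed to 10870 to 12820, or 1.087% to 1.282% of all TPM. Gapdh, which oxidises glyceraldehyde 3-phosphate, was highest at 2866 ± 282 TPM (SD, n = 8 libraries), followed by the pyruvate kinase gene Pkm at 1424 ± 58.6, Eno1 at 1194 ± 75.9, Pgk1 at 1131 ± 109 and Ldha at 1066 ± 109. Aldoa belongs in the same range: its symbol has 2 rows, 1 at 1301 to 1559 TPM and the other at 0.652 to 2.75. Eno1 and Pgk1 differed by less than 1 SD, as did Pgk1 and Ldha. Next came Tpi1 at 798.7 ± 98.8, Pgam1 at 634.3 ± 37.7 and Gpi1 at 221.1 ± 24.1 TPM. The first steps and the export of lactate stood lower, with Pfkl at 112.6 ± 11.4 TPM, Hk1 at 102.3 ± 11.9, Slc2a1 at 88.7 ± 9.87, Slc16a1 at 81.95 ± 6.14 and Hk2 at 79.99 ± 14.4, where neighbours in this order other than Hk1 and Slc2a1 differed by less than 1 SD.

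**Figure D1:**
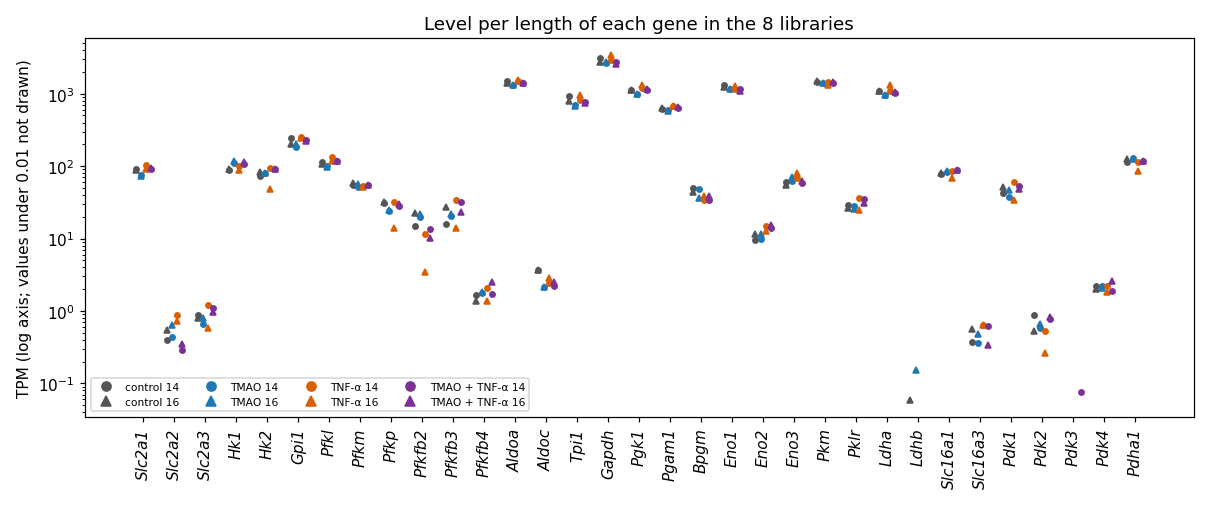
Level of each gene per length, in TPM on a log axis, with 1 point per library, coloured by group and with the library number as the marker. Gapdh at the top and Ldhb and Pdk3 at the bottom span the range, and the 8 points of most genes above 10 TPM lie close together beside the distances between genes.

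At each step with several isozymes, 1 gene usually gave most of the TPM. GLUT1 (Slc2a1) made up 98.44% ± 0.243 of the summed TPM of Slc2a1, Slc2a2 and Slc2a3, and Ldha made up 99.98% to 100% of the lactate dehydrogenase sum. The shares were 93.94% ± 0.718 for Eno1 among the enolases, 97.97% ± 0.283 for Pkm among the pyruvate kinases, 99.39% ± 0.182 for the lactate transporter Slc16a1 (MCT1) against Slc16a3 (MCT4), and 94.35% ± 0.97 for Pdk1 among the 4 kinases. Hexokinases and phosphofructokinases were mixed, with Hk1 at 56.37% ± 4.12 and Pfkl at 57.87% ± 3.39. Hk3 had 0 counts in every library. Of the isozymes known from liver, Pfkl was the main phosphofructokinase, Pklr was present at 29.5 ± 4.36 TPM and Slc2a2 stood at 0.532 ± 0.203. The PFKFB family was the most variable: the share of Pfkfb2 among Pfkfb1 to Pfkfb4 ran from 10.09% to 34.16%, and that of Pfkfb3 was 40.64% ± 6.37.

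For TMAO the question was whether these genes move when it is given alone (against control), when it is added to TNF-α (both against TNF-α), and on average over the 2 settings, which is 4 libraries against 4. With edgeR (quasi-likelihood test, Benjamini-Hochberg adjustment), 0 of the 31 tested genes passed in each of these contrasts, as did 0% of all 15613 genes. At an unadjusted p under 0.05 there were 3 genes for TMAO against control, 3 for both against TNF-α and 8 for the averaged contrast, all of them lower. Among all genes such a lower value occurred in 0.762%, 2.36% and 1.9%. DESeq2 and limma-voom also called 0 of the 31 in these contrasts.

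The values leaned 1 way without passing the test. In the averaged contrast 22 of the 31 log2 fold changes were negative, against 51.1% of all genes, and their median was -0.16 against -0.00615 over all genes. Both TMAO libraries lay below both control libraries for 19 of the 31 genes, against 15.9% of all genes, and both combined libraries lay below both TNF-α libraries for 16, against 17.3%. By CPM all 4 libraries with TMAO lay below all 4 without it for 11 genes, against 1.38% of all genes. In the deposited TPM Aldoa, Tpi1 and Ldha kept this order, whereas Slc2a1, Gpi1, Aldoc, Gapdh, Pgk1, Pgam1, Pkm and Pdk1 overlapped. By CPM the pairs were apart in both settings in 14 genes, against 4.49% of all genes. They were Slc2a1, Gpi1, Pfkl, Aldoa, Aldoc, Tpi1, Gapdh, Pgk1, Pgam1, Eno1, Eno2, Pkm, Ldha and Pdk1. These hold a gene of glucose uptake, of each step from glucose 6-phosphate to pyruvate and of the lactate step, and 1 kinase. Neither Hk1 nor Hk2 was among them. Pdha1, the catalytic subunit gene of pyruvate dehydrogenase, was the only 1 of the 31 that was higher in both settings, against 4.81% of all genes.

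**Figure D2:**
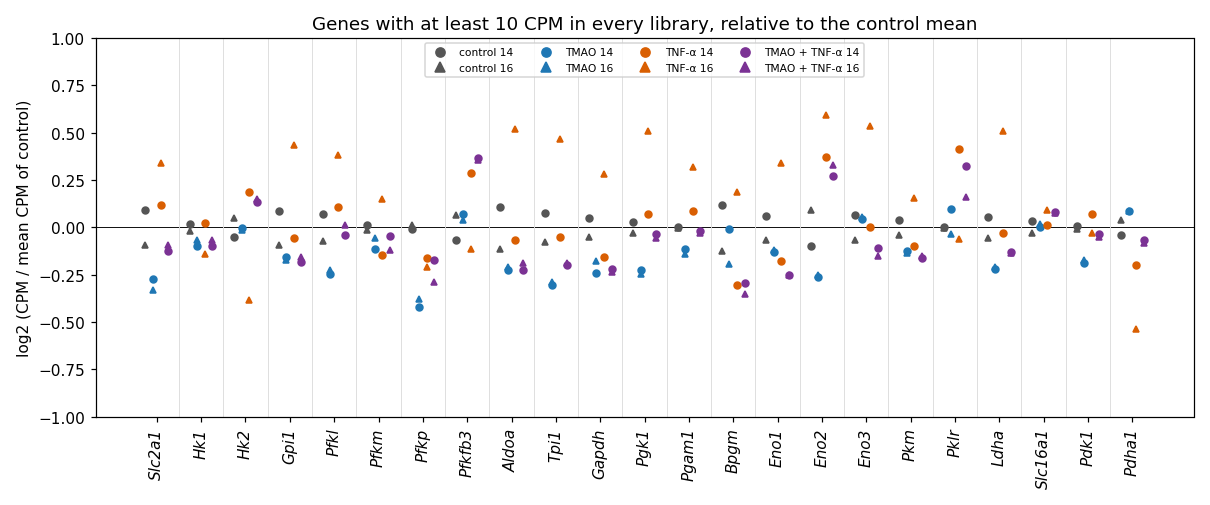
log2 ratio of CPM to the mean of the control libraries for the genes with at least 10 CPM in every library, with 1 point per library. The TMAO points of Slc2a1, Pfkl, Tpi1, Pgk1 and Ldha lie under 0, and TNF-α 16 stands highest for Aldoa, Tpi1, Ldha and several others.

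Slc2a1, the basal glucose transporter, was at 126 and 111 CPM in control 14 and 16, at 97.9 and 93.9 with TMAO, at 128 and 149 with TNF-α and at 108 and 111 with both. All 4 libraries with TMAO lay below all 4 without it by CPM, although control 16 and the combined libraries were nearly level. In the deposited TPM the combined libraries, at 91.58 and 93.24, lay above the control libraries, at 90.87 and 88.1. Its averaged log2 fold change was -0.32 ± 0.083 (SE; unadjusted p = 0.00607, edgeR adjusted p = 0.66), or 0.8-fold. The value was -0.30 for TMAO against control and -0.34 for both against TNF-α.

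Aldoc, the aldolase isozyme best known from brain, was at 4.77 and 4.34 CPM in control, 2.17 and 2.55 with TMAO, 2.85 and 4.34 with TNF-α and 2.23 and 2.27 with both. It had the lowest unadjusted p of the 31 genes in the averaged contrast. Its log2 fold change was -0.81 ± 0.17 (unadjusted p = 0.00216, edgeR adjusted p = 0.66), at a level far under that of Aldoa. Aldoa, the main aldolase, was at 1246 and 1067 CPM in control, 991 and 1000 with TMAO, 1106 and 1657 with TNF-α and 989 and 1015 with both. Its groups were apart on average (log2 fold change -0.34 ± 0.142), but TNF-α 16 alone stood above every other library.

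The 3 phosphofructokinase genes had negative averaged values, and whether they differ from each other was not tested. Pfkp, the platelet isozyme, was at 49.5 and 50.3 CPM in control, 37.3 and 38.4 with TMAO, 44.6 and 43.2 with TNF-α and 44.3 and 40.8 with both. TMAO alone separated cleanly from control (log2 fold change -0.40 ± 0.0964; unadjusted p = 0.00427, edgeR adjusted p = 1), whereas both against TNF-α gave -0.04 ± 0.0964, with overlapping libraries. In the deposited TPM values Pfkp in TNF-α 16 was 14.1, less than any other library. Its averaged TMAO value changed sign to 0.04 on the log2(TPM + 1) scale, where the median over all genes was 0.0813. Exons of Pfkp share 5.58% of their bases with Pitrm1 on the other strand, and no source used here gives the strand setting of the counting. Pfkl, the liver isozyme, was at 204.3 and 185 CPM in control, 164 and 167 with TMAO, 209.8 and 254 with TNF-α and 189 and 196 with both. It was lower with TMAO in both settings (log2 fold change -0.25 ± 0.0876; unadjusted p = 0.0239, edgeR adjusted p = 0.66). Pfkm, the muscle isozyme, stood at 70.6 to 86.6 CPM over the 8 libraries, with an averaged value of -0.09 ± 0.0845.

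The enzymes of the lower pathway lay together. Tpi1, which interconverts the triose phosphates, was at 952 and 854 CPM in control, 732 and 738 with TMAO, 872 and 1247 with TNF-α and 788 and 792 with both. Pgk1, the first ATP-forming step, was at 991 and 953 CPM in control, 832 and 820 with TMAO, 1021 and 1381 with TNF-α and 949 and 934 with both. In both genes every library with TMAO was below every library without it by CPM, and TNF-α 16 was the highest. In the deposited TPM Tpi1 kept this order. Pgk1 in TPM was at 1142 and 1159 with both agents, above control at 1125 and 1135. The averaged log2 fold changes were -0.36 ± 0.128 for Tpi1 and -0.29 ± 0.114 for Pgk1 (unadjusted p = 0.026 and 0.0371, edgeR adjusted p = 0.66 for each). Ldha, which makes lactate, was at 1171 and 1085 CPM in control, 970.1 and 976 with TMAO, 1103 and 1604 with TNF-α and 1030 and 1027 with both, with a log2 fold change of -0.30 ± 0.131. Gapdh (-0.26 ± 0.123), Gpi1 (-0.27 ± 0.12), Eno1 (-0.24 ± 0.129), Pgam1 (-0.18 ± 0.084) and Pkm (-0.16 ± 0.0964) lay in the same direction. Eno2 gave -0.22 ± 0.0905 by counts and 0.05 on the log2(TPM + 1) scale, where the median over all genes was 0.0813. Pdk1, a kinase that inhibits pyruvate dehydrogenase, was at 94.6 and 93.7 CPM in control and 82.4 and 83.4 with TMAO, and gave -0.12 ± 0.0643 on average.

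The remaining genes had positive values, or negative ones whose libraries overlapped in at least 1 setting. Hk2 (0.10 ± 0.127) and the lactate transporter Slc16a1 (0.02 ± 0.0666) gave overlapping libraries in both settings. Hk1 (-0.05 ± 0.0731) was lower with TMAO against control, at 215.5 and 220.8 CPM against 233.8 and 228.4, but overlapped in the other setting. In the deposited TPM Hk1 had the opposite order, with 109 and 117.9 with TMAO and 87.92 and 92.47 in control. Pfkfb3 (0.16 ± 0.101), Pfkfb2 (0.23 ± 0.19) and Pfkfb4 (0.18 ± 0.194), which set the level of fructose 2,6-bisphosphate, were positive in the averaged TMAO contrast. Slc2a3 (-0.13 ± 0.16), Bpgm (-0.19 ± 0.128) and Eno3 (-0.19 ± 0.122) had negative values, and Slc16a3, Pdk2, Pdk4, Pklr and Slc2a2 lay within 1 SE of 0.

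TNF-α 16 and control 14 bear on these TMAO values. Without both of those libraries, a setting that leaves 1 library in each of 2 groups and assumes that a lone library varies like the other groups, the averaged median of the 31 genes was -0.0754. There edgeR called 11 of the 31 genes lower for the averaged contrast (0.339% of 16245 genes), 8 lower for TMAO against control (0.271%) and 3 lower for both against TNF-α (0.0492%). The 11 were Slc2a1, Pfkl, Pfkp, Aldoa, Tpi1, Gapdh, Pgk1, Pgam1, Pkm, Ldha and Pdk1, with fold changes nearer 0 than over all 8 libraries apart from Pfkp and Pdk1, such as -0.18 for Tpi1 (edgeR adjusted p = 3.88e-09) and -0.22 for Slc2a1 (edgeR adjusted p = 7.9e-06). The tests there rest on the spread within the TMAO pair and the combined pair, the closest in the series. Without TNF-α 14 alone, so that TNF-α 16 stood for its group, edgeR called 22 of the 31 for the averaged contrast, when 44.8% of all genes were called. A list of 25 ribosomal protein genes moved with the same libraries: its mean log2 CPM was 10.32 in TNF-α 16, 9.73 in control 14 and 9.46 to 9.54 in the other 6 libraries. Its averaged TMAO median was -0.286 over all 8 libraries and 0.0113 without those 2 libraries, and the part of the same libraries in the glycolytic values was not tested further. In the deposited TPM values 14 of 27 members were negative with TMAO, and the median was -0.000418, against 0.0813 over all genes.

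**Figure D3:**
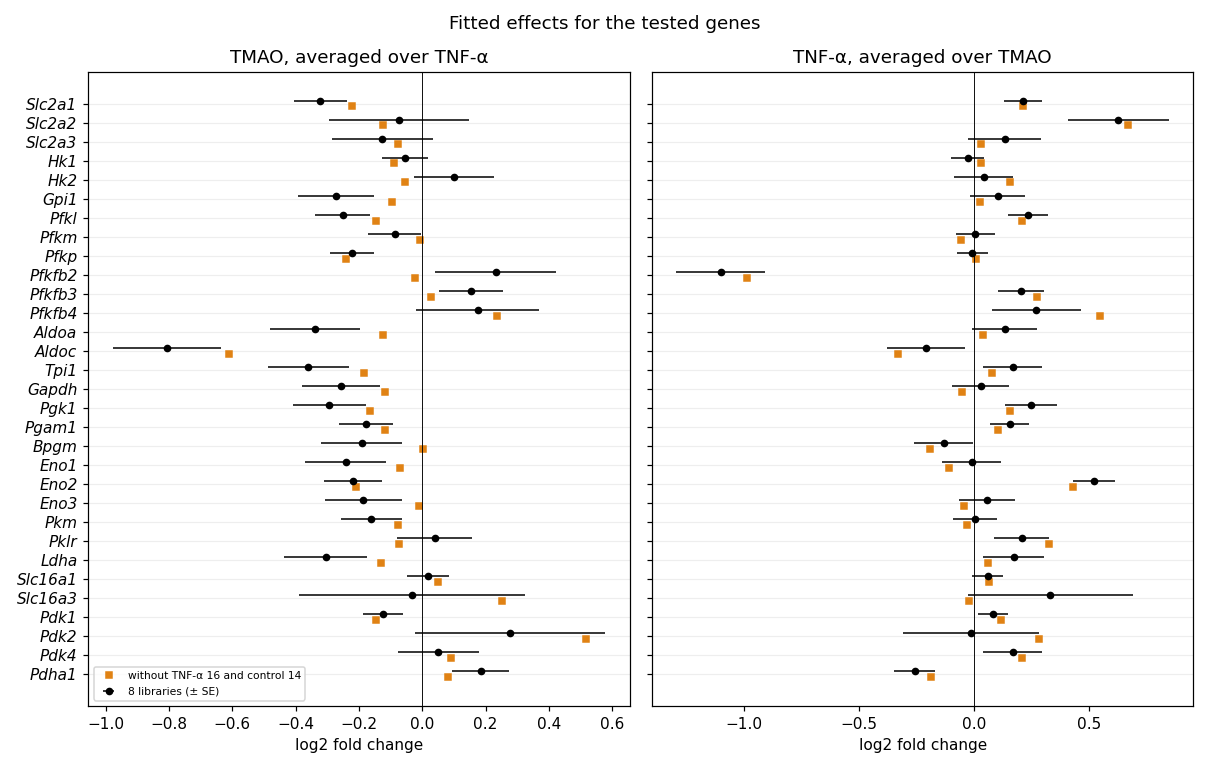
Fitted log2 fold changes of the 31 tested genes for TMAO averaged over TNF-α (left) and TNF-α averaged over TMAO (right), with SE from all 8 libraries (circles) and the values without TNF-α 16 and control 14 (squares). Most glycolytic enzymes lie to the left of 0 for TMAO, and Pfkfb2 at -1.10 and Eno2 at 0.52 lie farthest from 0 relative to their SE for TNF-α.

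TNF-α gave the 2 calls among the 31 genes. In the contrast averaged over TMAO, edgeR called Pfkfb2 lower and Eno2 higher, which is 1 of 31 in each direction, against 3.86% of all genes called lower and 5.35% called higher. Both directions together, 9.2% of all genes were called, so a count of 2 of 31 is not above the share of all genes. For TNF-α against control 0 of the 31 passed, against 4.05% of all genes, and 4 had an unadjusted p under 0.05, against 15.2%. DESeq2 called 1 of the 31, Pfkfb2, against 6.15% of all genes. For both against TMAO 0 passed, against 3.64%, and 2 were under 0.05 unadjusted, against 13.8%. For both against control 0 passed, against 3.49%, and 5 were under 0.05 unadjusted, against 13.5%. DESeq2 called 2 and 1 of the 31 in those contrasts, against 5.82% and 5.76% of all genes. The median of the 31 averaged values was 0.102, against 0.00318 over all genes. Hepatocyte markers moved in the same contrast: Alb, Afp, Hnf4a and Foxa2, 4 of the 8 tested, fell, and the summed level of the 11 listed was 1410 to 1534 CPM with TNF-α and 3125 to 3349 without it. Their part in the values of the glycolytic genes was not tested.

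Pfkfb2, which makes and breaks down fructose 2,6-bisphosphate and is known from heart and liver, was at 13.7 and 16.8 CPM in control and 15.3 and 16.1 with TMAO. With TNF-α it was at 7.97 and 4.38 CPM, and with both at 9.16 and 7.48. Every library with TNF-α was below every library without it, and TNF-α 16 was the lowest. The averaged log2 fold change was -1.10 ± 0.192 (edgeR adjusted p = 0.0136), a fold of 0.465. It was -1.29 for TNF-α against control (edgeR adjusted p = 0.0524) and -0.91 for both against TMAO (edgeR adjusted p = 0.15). In TPM it was 14.8 and 22.6 in control, 11.5 and 3.40 with TNF-α and 13.3 and 10.2 with both, also without overlap. Pfkfb2 exons overlap Gm29427 on the same strand, which had at most 4 counts, and Yod1 on the other strand, which had 326 to 738 counts where Pfkfb2 had 106 to 488. Both genes had their lowest count in TNF-α 16, and the part of Yod1 reads in the Pfkfb2 counts was not tested.

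Eno2, the enolase known from neurons, was at 13.1 and 14.96 CPM in control, 11.7 and 11.8 with TMAO, 18.1 and 21.2 with TNF-α and 16.96 and 17.7 with both. The 4 libraries with TNF-α lay above the 4 without it. The averaged log2 fold change was 0.52 ± 0.0907 (edgeR adjusted p = 0.0131), a fold of 1.44. Eno1, the main enolase, gave -0.01 ± 0.129 and Eno3 gave 0.06 ± 0.122, and whether the enolases differ from each other was not tested. Both calls passed by DESeq2, limma-voom, both scalings and both filters. They did not both pass in 6 of the 8 fits that left out 1 library: Pfkfb2 had an adjusted p of 0.0608 and 0.0875 without combined 14 or 16, and Eno2 one of 0.0621 and 0.0751 in the same edgeR fits. Without control 14 Eno2 stood at an edgeR adjusted p of 0.0704, and without control 16 Pfkfb2 stood at 0.0728. Without TMAO 14 the edgeR adjusted p was 0.0639 for Pfkfb2 and 0.0778 for Eno2, and without TMAO 16 it was 0.0732 and 0.0788. On the log2(TPM + 1) scale limma gave -1.07 for Pfkfb2 and 0.40 for Eno2, with adjusted p of 0.174 and 0.134.

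**Figure D4:**
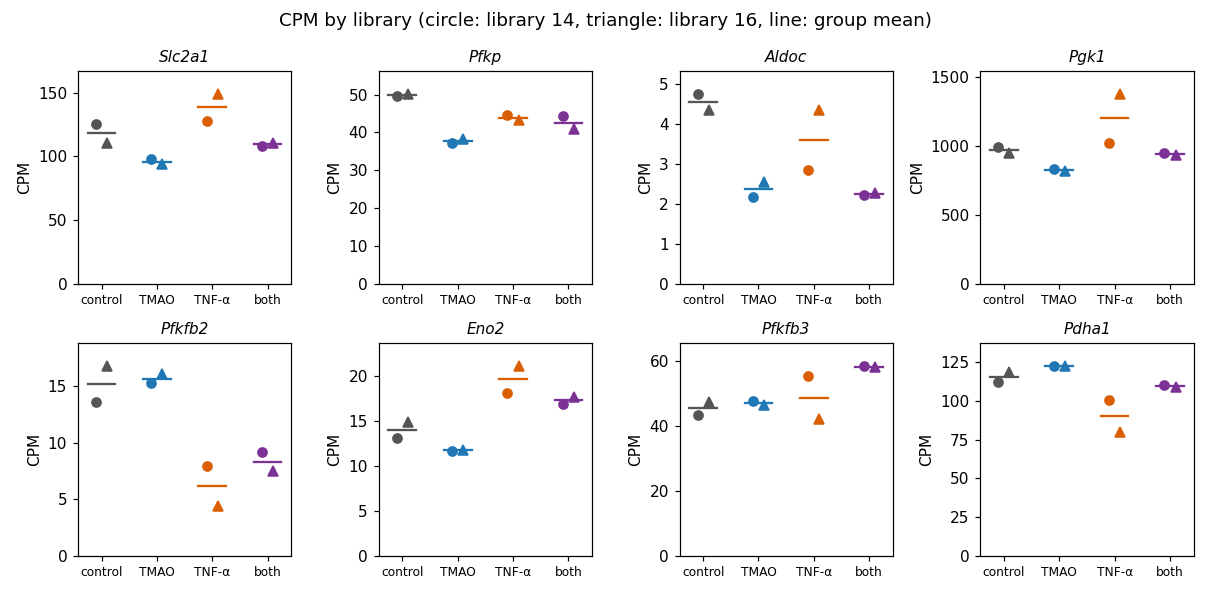
CPM of 8 genes in each library, with circles for library 14, triangles for library 16 and a line at the mean of each group. Pfkfb2 is at 4.38 to 9.16 in the 4 libraries with TNF-α and at 13.7 to 16.8 in the 4 without it, and Slc2a1 and Pgk1 are lowest with TMAO alone.

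The other genes with the smallest unadjusted p for TNF-α did not pass. Pdha1 was at 112 and 119 CPM in control, 122 and 123 with TMAO, 101 and 79.6 with TNF-α and 110.1 and 109 with both, so the 4 libraries with TNF-α lay below the 4 without it. Its averaged log2 fold change was -0.26 ± 0.0897 (unadjusted p = 0.0239, edgeR adjusted p = 0.151). Exons of Pdha1 share 16.1% of their bases with Map3k15 on the other strand, which had 2 to 6 counts where Pdha1 had 1925 to 3699. Slc2a2, the liver glucose transporter, was at 0.541 and 0.552 CPM in control, 0.526 and 0.663 with TMAO, 1.03 and 0.910 with TNF-α and 0.862 and 0.745 with both. These are low levels, above the limit that 3 counts set (0.0993 to 0.124 CPM), and the value was 0.63 ± 0.22 (edgeR adjusted p = 0.153). In the deposited TPM the combined libraries of Slc2a2, at 0.291 and 0.350, were instead the lowest of all, under control at 0.398 and 0.542. Slc2a1 (0.21 ± 0.0832), Pfkl (0.24 ± 0.0876), Pgk1 (0.25 ± 0.114) and Pfkfb3 (0.20 ± 0.101) had positive values, with adjusted p of 0.206, 0.179, 0.292 and 0.334 in edgeR. Pfkfb3, the inducible isozyme with high kinase activity, was at 43.3 and 47.4 CPM in control, 47.5 and 46.5 with TMAO, 55.3 and 41.9 with TNF-α and 58.4 and 57.9 with both, so the TNF-α pair overlapped control and the combined pair did not.

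By CPM both libraries with TNF-α were higher in both settings in 6 genes (Slc2a1, Slc2a2, Pfkl, Pgk1, Pgam1 and Eno2), against 12.1% of all genes. In 2 they were lower (Pfkfb2 and Pdha1), against 12.3%. Neither count is far from the share over all genes. In the deposited TPM Slc2a2 was lower with both agents than with TMAO, whereas the other named genes kept their order. Without TNF-α 16 and control 14, edgeR called 18 of the 31 genes for the averaged TNF-α contrast (13 higher and 5 lower), when 34% of all genes were called. In that fit Pfkfb2 had -0.99 and Eno2 0.43, and both passed. Hk2, the inducible hexokinase, shows how the TNF-α pair spread: TNF-α 14 was the highest of all 8 libraries at 237 CPM and TNF-α 16 the lowest at 159, with 201 and 215 in control, 207 and 206 with TMAO and 228 and 231 with both.

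The comparison of both agents with control gave the lowest value for Aldoc at -1.02 ± 0.24 (edgeR adjusted p = 0.0817). The interaction, which asks whether the effect of TMAO differs with and without TNF-α, called 0 of the 31 genes and 0% of all genes in edgeR, with 1 of the 31 higher at an unadjusted p under 0.05 (0.628% of all genes) and 0 by DESeq2. That gene was Pfkp. For the 24 members with a mean CPM of 10 or more, 95% intervals of the log2 fold changes were set with 4 residual degrees of freedom. Their median half-width was 0.421 to 0.422 between pairs of groups, 0.298 in the averaged contrasts and 0.596 in the interaction. The edgeR tests share the spread across genes, so these intervals are wider than those tests imply. Differences as small as those of most members were not detectable at this spread.

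Other genes around the pathway were followed as lists chosen by function. Of 26 tested further genes of glycolysis, transport and pyruvate handling, edgeR called 0 for averaged TMAO, against 0% of all genes. For averaged TNF-α it called 4, against 9.2% of all genes, and 3 of the 4 are given. The transporters Slc2a6 (1.70; edgeR adjusted p = 0.0106) and Slc2a4 (1.10; edgeR adjusted p = 0.0414) rose at levels of at most 2.69 CPM. The lactate transporter Slc16a7 fell (edgeR adjusted p = 0.00762) from 0.338 to 0.771 CPM without TNF-α to 0 to 0.0709 with it, which is under the limit that 3 counts set. Of 8 gluconeogenesis, 11 pentose phosphate and 16 citric acid cycle genes, 0 were called in either averaged contrast by edgeR.

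Of 25 tested HIF targets outside glycolysis, 8 rose and 0 fell in the averaged TNF-α contrast by edgeR (5.35% and 3.86% of all genes), with a median of 0.297. They included Ndrg1 and Bnip3 (0.84 each) and Egln3 (0.83), which encode a differentiation-associated protein, a mitophagy receptor and a HIF prolyl hydroxylase. For averaged TMAO 0 of the 25 were called by edgeR, 22 were negative and the median was -0.33. Without TNF-α 16 and control 14, 24 of them were negative and the median was -0.237, against 0.00144 over all genes. Calls from that fit, given above for the 31 genes, are not given for this list. Of 22 tested regulators of glycolytic genes, edgeR called 1 higher and 2 lower for averaged TNF-α, against 5.35% and 3.86% of all genes. Arrdc4 rose by 0.34, and Klf4 (-1.23) and Hnf4a (-0.65) fell. For averaged TMAO 0 of the 22 were called, against 0% of all genes. The difference between the HIF list and the 31 genes was not tested.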

How the data were processed

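Counts are whole numbers per Ensembl gene identifier, deposited by the authors in a table whose name names htseq; the authors also deposited TPM values per gene symbol. The build was mm9 per the submitters' processing notes, and the sources used here do not give the aligner, annotation or strand setting. Identifiers were matched to symbols in GENCODE M21 (54409 of 54446). Aldoa has 2 identifiers, and the one named by RefSeq transcripts was used. The 8 libraries were assigned to 4 groups by their titles. Genes passing filterByExpr (15613) were scaled by TMM and fitted with edgeR 4.0.16 in R 4.3.3 (glmQLFit, robust, 4 group means, 4 residual degrees of freedom), and quasi-likelihood tests were adjusted by Benjamini-Hochberg over all genes at 0.05. CPM values use the TMM-scaled totals, and log2 fold changes are given with their standard errors. TPM values were tested with limma 3.58.1 on log2(TPM + 1) after a filter of at least 1 TPM in 2 libraries, and the log scale understates changes of low genes. Other settings were DESeq2 1.42.0, limma-voom, other scalings, filters and groups, each library left out, and a replicate block. The main edgeR fit was tested on simulated counts for the averaged contrasts only, with the same spread set for all genes and groups. The other fits were not tested in this way. RefSeq promoter windows came with GRCm38.p6. Reads shared with named copies, at most 107 counts each, or with overlapping genes cannot be assigned. Depth of 24736746 to 30488605 counts puts the limit of 3 counts at 0.0993 to 0.124 CPM, for counting error only.

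The members, the lists and the settings were chosen with earlier results of these data known. Values in every library are given for the called genes and the 8 with the smallest p for each averaged contrast, and other members by value or range. Results on some related genes are not reported here.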

Additional observations from a re-analysis of the deposited data

Results flagged for a closer look

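Pfkp was looked at again because its TNF-α effect had opposite signs in the 2 settings. Against control, both TNF-α libraries (44.6 and 43.2 CPM) lay below both control libraries (49.5 and 50.3). Against TMAO, both combined libraries (44.3 and 40.8 CPM) lay above both TMAO libraries (37.3 and 38.4). The interaction was 0.35 ± 0.136 on the log2 scale (unadjusted p = 0.035, edgeR adjusted p = 0.953), so the difference did not pass the adjusted test.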

How the results depend on the processing

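Numbers of the 31 genes called were as follows where they moved. Leaving out 1 library at a time gave 0 to 20 for both against TNF-α, 0 to 22 for averaged TMAO, 0 to 16 for TNF-α against control, 0 to 6 for both against TMAO, 0 to 14 for averaged TNF-α, 0 to 10 for both against control and 0 to 14 for the interaction, and 0 throughout for TMAO against control. In most the highest count was without TNF-α 14, when TNF-α 16 stood for its group, and both against control gave 10 without either TNF-α library. At these highest counts the share of all genes called was 49.4%, 44.8%, 48.9%, 16%, 45.6%, 18.2% to 18.4% and 35.5%, in the order above. Without TNF-α 16 and control 14 the counts were 8 for TMAO against control, 3 for both against TNF-α, 11 for averaged TMAO, 11 for TNF-α against control, 18 for both against TMAO, 18 for averaged TNF-α and 15 for both against control, when 0.295%, 0.0739%, 0.388%, 20.1%, 29.7%, 34% and 22.8% of all genes were called. DESeq2 gave 1 for TNF-α against control, 2 for both against TMAO and 1 for both against control, against 6.15%, 5.82% and 5.76% of all genes, and limma-voom gave 1 for TNF-α against control (3.83%). No filter gave 1, 1 and 2 for those contrasts in the same order (3.18%, 3% and 2.99%). Total counts gave 1 for both against TMAO (3.68%), and fits of only the groups compared gave 18 for both against TMAO (31.9%) and 5 for both against control (15.9%). TPM values gave 0 for averaged TNF-α with either pseudocount, against 2 by counts, with 5.43% and 5.18% of all genes called. On TPM the averaged TMAO value reversed to 0.0378 and 0.0423 for Pfkp and to 0.0526 and 0.0563 for Eno2 (pseudocounts 1 and 0.1). The median over all genes was 0.0813 and 0.0936 on these scales, so both genes lay below it. The causes were not tested.

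The numbers 14 and 16 did not pair the libraries: correlations of same-numbered deviations ran from -0.636 (control and TNF-α) to 0.00487. The fit with the replicate block called 2 of the 31 genes for averaged TNF-α, with adjusted p of 0.0287 for Pfkfb2 and 0.0251 for Eno2, and changed no other count. With 2 libraries a group and 4 residual degrees of freedom, the averaged contrasts of members above 10 CPM had 95% intervals with a median half-width of 0.298.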
